A study of Mus musculus with 39 samples.

Results

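Dendritic cells (DC) sorted 12 h after immunization with nanoparticles that held ovalbumin (OVA) and CpG were compared with DC sorted 12 h after particles that held CpG and no protein antigen. The libraries were taken by their sample labels and number 4 of the 39 in the series, 2 per group. They belong to a time course of 10 libraries that also holds 2 each of DC taken 24 h after OVA particles, 24 h after CpG-only particles and from non-immunized mice. The mice of all groups compared here were wild-type C57BL/6 animals, 8 to 12 weeks old. DC were enriched by negative selection from popliteal and inguinal lymph nodes and then sorted. Immunization was given under the skin of the hock. The series description says that mice had received T cells with receptors for OVA (OT-I and OT-II). The labels of the time course do not repeat this for single samples, so whether OVA met such T cells there rests on that description. Independent libraries were drawn from 2 further experiments. One holds DC taken 12 h after OVA or bovine serum albumin (BSA) particles from mice labelled as given OT cells (2 libraries each), and the other DC taken 20 h after OVA or BSA particles (5 libraries each). The fit of the first also held 2 libraries labelled knockout, with OVA and OT cells, and 2 wild-type libraries with OVA and no OT label. These were not compared here but entered its filter, scaling and pooled spread.

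DC take up antigen in tissue, mature, and carry it to the T cells of the draining node. CpG DNA engages TLR9, which starts a type I interferon response and the maturation programme. That programme includes the homing receptor Ccr7, the actin-bundling protein Fscn1, costimulatory ligands and the NF-kB subunit Relb. T cells that recognise antigen on a DC release interferon-gamma, which induces the immunity-related and guanylate-binding GTPases. Many of the same genes are also induced by type I interferon.

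The 4 libraries held 1228576 and 733829 counts after OVA particles, against 887492 and 670121 counts after CpG-only particles. Replicates differed by more than counting noise, with a chi-square per degree of freedom of 2.79 between the OVA libraries and 2.98 between the CpG-only libraries. Levels are given in CPM, TMM-scaled counts relative to a library total of 1e+06, and differences as log2 of OVA over CpG-only with their standard error (SE). The labels do not say that the replicates came from separate animals, so p-values measure the spread between these samples.

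The label was checked against marker genes. The invariant chain Cd74, made by antigen-presenting cells, stood at 1600 and 1811 CPM after OVA particles, against 2432 and 5070 CPM after CpG-only particles. The DC integrin Itgax stood at 28.1 and 14.4 CPM after OVA particles, against 28.1 and 107 CPM after CpG-only particles. Zbtb46, a transcription factor of conventional DC, had 2.56 and 5.76 CPM after OVA particles, against 11.7 and 6.23 CPM after CpG-only particles, too few to be tested. The 14 genes of the conventional DC list summed to 5663 and 6742 CPM after OVA particles, against 9316 and 16013 CPM after CpG-only particles. RNA of other cells was present beside that of DC. The T cell list summed above the DC list in both OVA libraries. In both CpG-only libraries the neutrophil list did so, at 16020 and 20498 CPM. The lists differ in length and in the level of their genes, so their sums give no shares of cells. Of 23 T cell markers 20 were measured, and their summed level was 7902 and 8054 CPM after OVA particles, against 5880 and 3842 CPM after CpG-only particles and 9205 and 9122 CPM without immunization. In the costimulation experiment, scaled separately, the same list summed to 384 and 296 CPM with OVA and OT cells, against 441 and 760 CPM with BSA and OT cells.

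**Figure D1:**
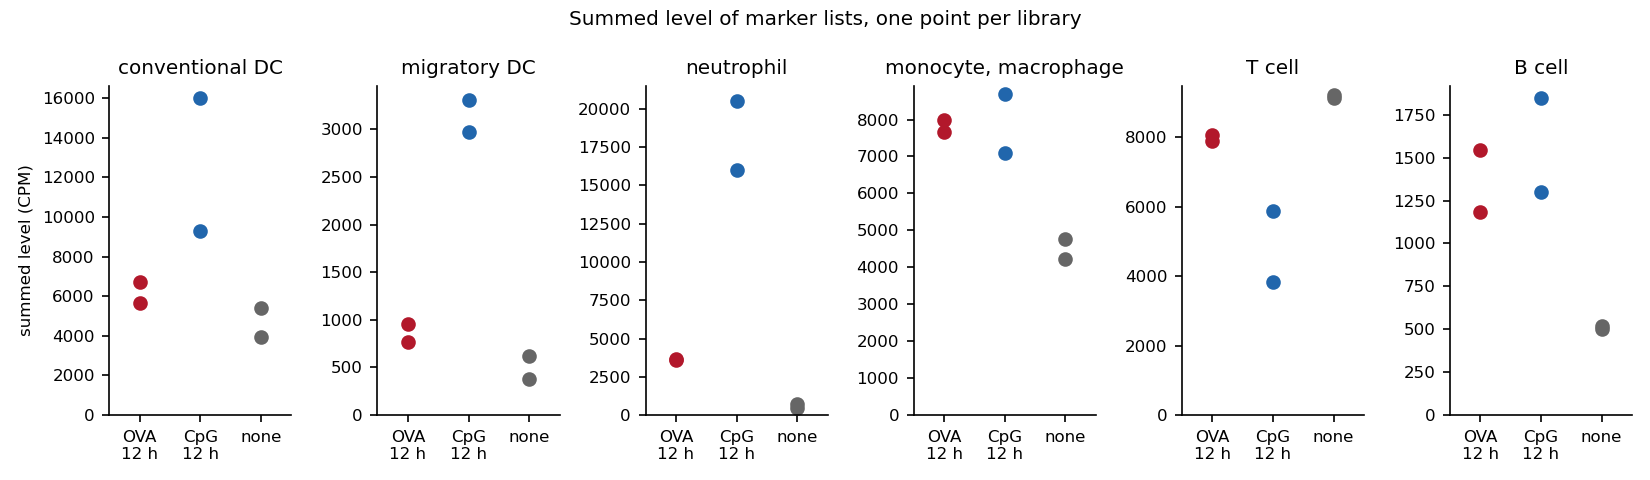
Summed level in CPM of 6 marker lists, with 1 point per library, for DC 12 h after OVA-CpG particles (red), 12 h after CpG-only particles (blue) and without immunization (grey). Neutrophil markers sum to 3690 and 3625 CPM after OVA particles, against 16020 and 20498 CPM after CpG-only particles, and T cell markers are higher in both OVA libraries than in both CpG-only libraries.

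At 12 h a set of interferon-inducible genes was higher after OVA particles than after CpG-only particles, and a set of maturation, migration and DC identity genes was lower. edgeR's quasi-likelihood test called 232 of 9428 genes at an adjusted p under 0.05 (2.46%), 71 higher (0.753%) and 161 lower (1.71%). The rises had a median log2 difference of 1.03, a 2.04-fold change, and 38 of 71 were over 2-fold. The falls had a median of -1.76, and 153 of 161 were over 2-fold. Over all genes tested the median was 0.01. At an unadjusted p under 0.05 there were 1213 genes. The count depended on single libraries. It was 168 without CpG-only replicate 1, 37 without CpG-only replicate 2, 51 without OVA replicate 1 and 24 without OVA replicate 2. Without those libraries, in the same order, 52, 0, 4 and 3 of the calls were rises. All 71 rises and all 161 falls kept their sign in each of these 4 fits. For at least 224 of the 232 calls the groups did not overlap, so leaving out 1 library could hardly turn their sign. Of 57 called genes followed below, 10 kept their call in all 4 fits and 18 in none. The authors' deposited table gives 195 genes with an adjusted p under 0.05, of which 180 are among the 232.

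Of the 71 genes that rose, 35 (49.3%) stood in lists of interferon-inducible genes or of the interferon-gamma pathway. Those lists cover 101 of the 9428 genes tested (1.07%). Of the 161 genes that fell, 31 stood in the maturation, migratory DC or NF-kB lists, which cover 71 of the genes tested, and 0 stood in the interferon lists. A total of 111 falls stood in none of the 41 lists. The lists were chosen with earlier results of these data known, so these shares are no independent test. Against non-immunized DC, 62 of the 71 rises were called higher and 0 lower after OVA particles (median log2 2.10), where 9.56% of all genes were called higher and 4.04% lower. After CpG-only particles 48 rises were called higher and 4 lower (1.10), where 11.6% of all genes were called higher and 4.65% lower. Of the 161 falls, 32 were called higher and 5 lower after OVA particles (0.55), and 148 higher and 0 lower after CpG-only particles (2.33). These comparisons share their controls, and each shares libraries with the comparison that chose the genes.

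**Figure D2:**
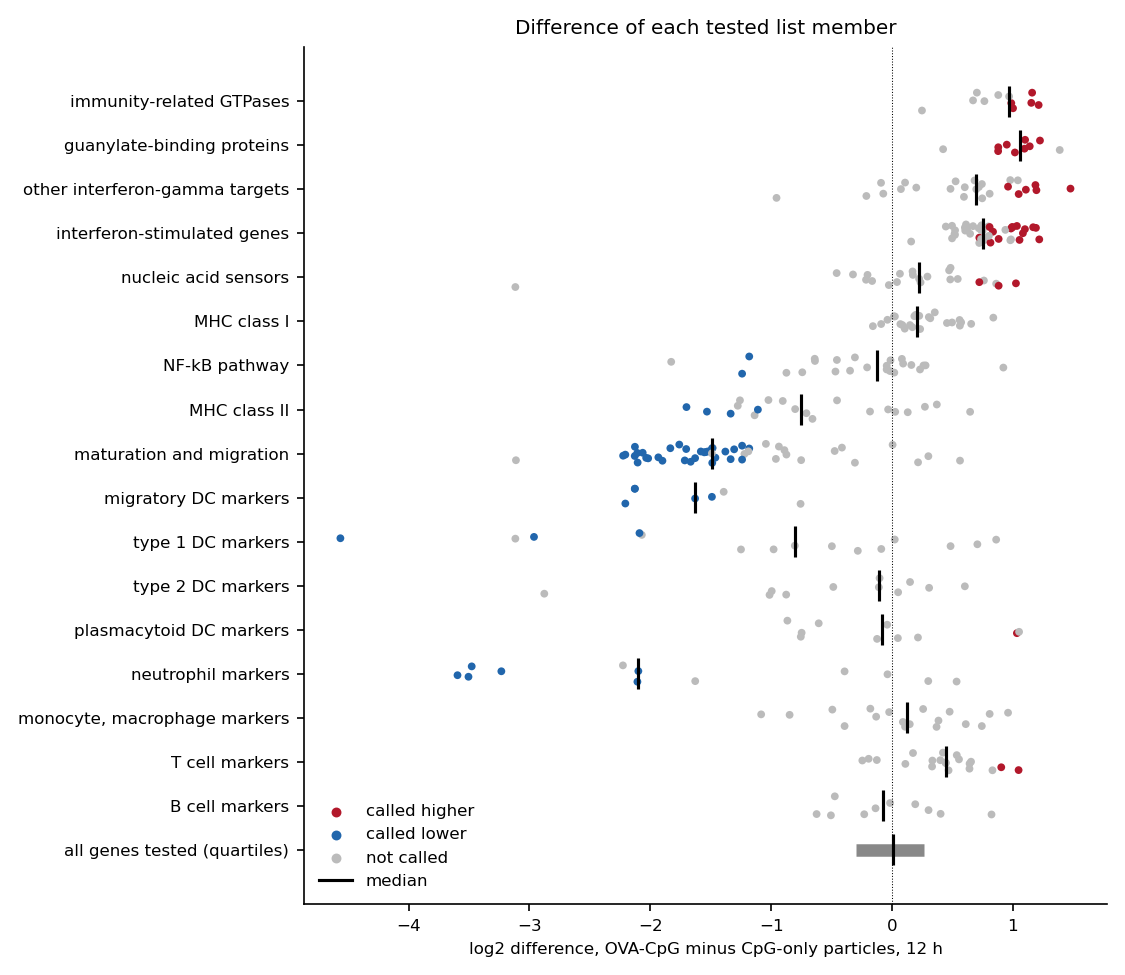
Log2 difference at 12 h, OVA-CpG minus CpG-only particles, of each tested member of 17 gene lists, coloured where called, with the list's median as a black line and the quartiles of all genes at the bottom. Guanylate-binding proteins and interferon-stimulated genes lie to the right of 0, and most maturation and migration genes lie to the left of it.

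The immunity-related GTPases, proteins that attack the vacuoles of intracellular pathogens, rose in 5 of 11 tested cases, with 0 lower and a median of 0.97. All 11 had a positive difference. Tgtp1 had 315 and 328 CPM after OVA particles, against 144 and 132 CPM after CpG-only particles, and both OVA libraries exceeded both CpG-only libraries. Its log2 difference was 1.21 ± 0.18 (SE; adjusted p = 0.00249, edgeR). Tgtp1 and Tgtp2 are near-identical copies, so reads may be split between them. Iigp1 had 550 and 626 CPM after OVA particles, against 241 and 285 CPM after CpG-only particles (log2 1.16 ± 0.20). Ifi47 had 1307 and 1176 CPM after OVA particles, against 704 and 547 CPM after CpG-only particles (log2 0.99 ± 0.18). In non-immunized DC the levels were 86.4 and 83.0 CPM for Tgtp1, 70.9 and 73.4 CPM for Iigp1 and 287 and 292 CPM for Ifi47. Called members of this list numbered 4, 0, 3 and 1 without CpG-only replicate 1, CpG-only replicate 2, OVA replicate 1 and OVA replicate 2. Without CpG-only replicate 2 Tgtp1 had an adjusted p of 0.0589 (edgeR).

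The guanylate-binding proteins, GTPases that act beside that family, rose in 8 of 10 cases (median 1.06, 0 lower). Gbp4 had 1240 and 1296 CPM after OVA particles, against 673 and 506 CPM after CpG-only particles. Its difference was 1.10 ± 0.19 (adjusted p = 0.00521, edgeR). Gbp7 had 1439 and 1736 CPM after OVA particles, against 845 and 721 CPM after CpG-only particles, and Gbp2 had 1256 and 1046 CPM against 623 and 568.5 CPM. The groups did not overlap for these 3 genes, as for at least 224 of the 232 calls. With 2 libraries a group a lack of overlap is common by chance, also among genes not called. Members of this family resemble each other in sequence, so single members are less certain than the family. Called members numbered 4 without CpG-only replicate 1 and 0 without each of the other 3 libraries.

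Further targets of interferon-gamma rose in 6 of 25 cases (median 0.70, 0 lower). The protease inhibitor Serpina3g had 770 and 786 CPM after OVA particles, against 371 and 310 CPM after CpG-only particles. The difference was 1.19 ± 0.19 (adjusted p = 0.00313, edgeR), and the OVA replicates lay closer to each other than the CpG-only replicates. Its relative Serpina3f had 158 and 141 CPM after OVA particles, against 50.4 and 57.6 CPM after CpG-only particles (log2 1.48 ± 0.27). Wars, a tryptophanyl-tRNA synthetase induced by interferon-gamma, rose by 1.05 ± 0.20. Cxcl10, a chemokine that attracts activated T cells through Cxcr3, had 7066 and 5548 CPM after OVA particles, against 2959 and 2892 CPM after CpG-only particles. Its difference of 1.11 ± 0.23 was called (adjusted p = 0.0173, edgeR) but lost the call in each leave-one-out fit, where adjusted p ran from 0.079 to 0.2228. Cxcl9, a ligand of the same receptor, overlapped between the groups, with 244 and 353 CPM after OVA particles and 243 and 383 CPM after CpG-only particles. Called members of this list numbered 3, 0, 1 and 0 in the 4 leave-one-out fits, in the order given above.

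Upstream of these targets, 1 of 13 tested genes of the interferon-gamma pathway was called. Socs1, a feedback inhibitor of the pathway, rose by 0.92 ± 0.19 (adjusted p = 0.0152, edgeR), with 537 and 523 CPM after OVA particles and 294 and 266 CPM after CpG-only particles. Irf1, a transcription factor of the pathway, had a difference of 0.46 ± 0.17 (adjusted p = 0.218, edgeR). Ifng itself had 0.852 and 5.76 CPM after OVA particles, against 4.69 and 0 CPM after CpG-only particles, and was too low to be tested. Cd274, which encodes the coinhibitory ligand PD-L1, had 265 and 289 CPM after OVA particles, against 163 and 182 CPM after CpG-only particles. The groups did not overlap, which is common by chance with 2 libraries a group. The difference of 0.68 ± 0.20 was not called (adjusted p = 0.11, edgeR). Without single libraries Socs1 was not called, with adjusted p from 0.0661 to 0.2197.

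Interferon-stimulated genes rose in 15 of 43 cases and 43 of 43 had a positive difference (median 0.75). The antiviral enzyme Rsad2 had 2637 and 2354 CPM after OVA particles, against 1112 and 1031 CPM after CpG-only particles (log2 1.22 ± 0.25). The exonuclease Isg20 had 1519 and 1075 CPM after OVA particles, against 660 and 475 CPM after CpG-only particles (log2 1.19 ± 0.26). Cmpk2, a nucleotide kinase encoded beside Rsad2, rose by 1.10 ± 0.19. The translation inhibitor Ifit1 rose by 1.08 ± 0.26 and Slfn5 by 1.06 ± 0.21. Samhd1, which degrades deoxynucleotides, rose by 0.81 ± 0.17, with 4575 and 4687 CPM after OVA particles and 2765 and 2523 CPM after CpG-only particles. Of 23 nucleic acid and microbial sensors 3 rose and 0 fell, and 0 were called in each of the 4 leave-one-out fits. The 3 include the RNA sensor Ifih1 (0.88 ± 0.20), also in the list of interferon-stimulated genes, and the DNA-binding protein Ifi204 (1.03 ± 0.23). In the same leave-one-out fits 4, 0, 0 and 1 of the 43 interferon-stimulated genes were called.

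Ifit1bl1, a relative of Ifit1 outside the lists, had 452 and 432 CPM after OVA particles, against 182 and 160 CPM after CpG-only particles (log2 1.37 ± 0.23). The 2 largest fitted rises among the genes named here were at low levels. The channel gene Trpm6 had 17.0 and 20.2 CPM after OVA particles, against 2.34 and 0 CPM after CpG-only particles, where it had 2 counts in all. The ratio of its counts was 13.6, with an exact 95% interval of 3.49 to 117 that covers counting error only. Tnp2, a transition protein gene of the testis, had 31.5 and 31.7 CPM after OVA particles, against 2.34 and 4.67 CPM after CpG-only particles. Both rises were lost in each of the 4 leave-one-out fits.

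**Figure D3:**
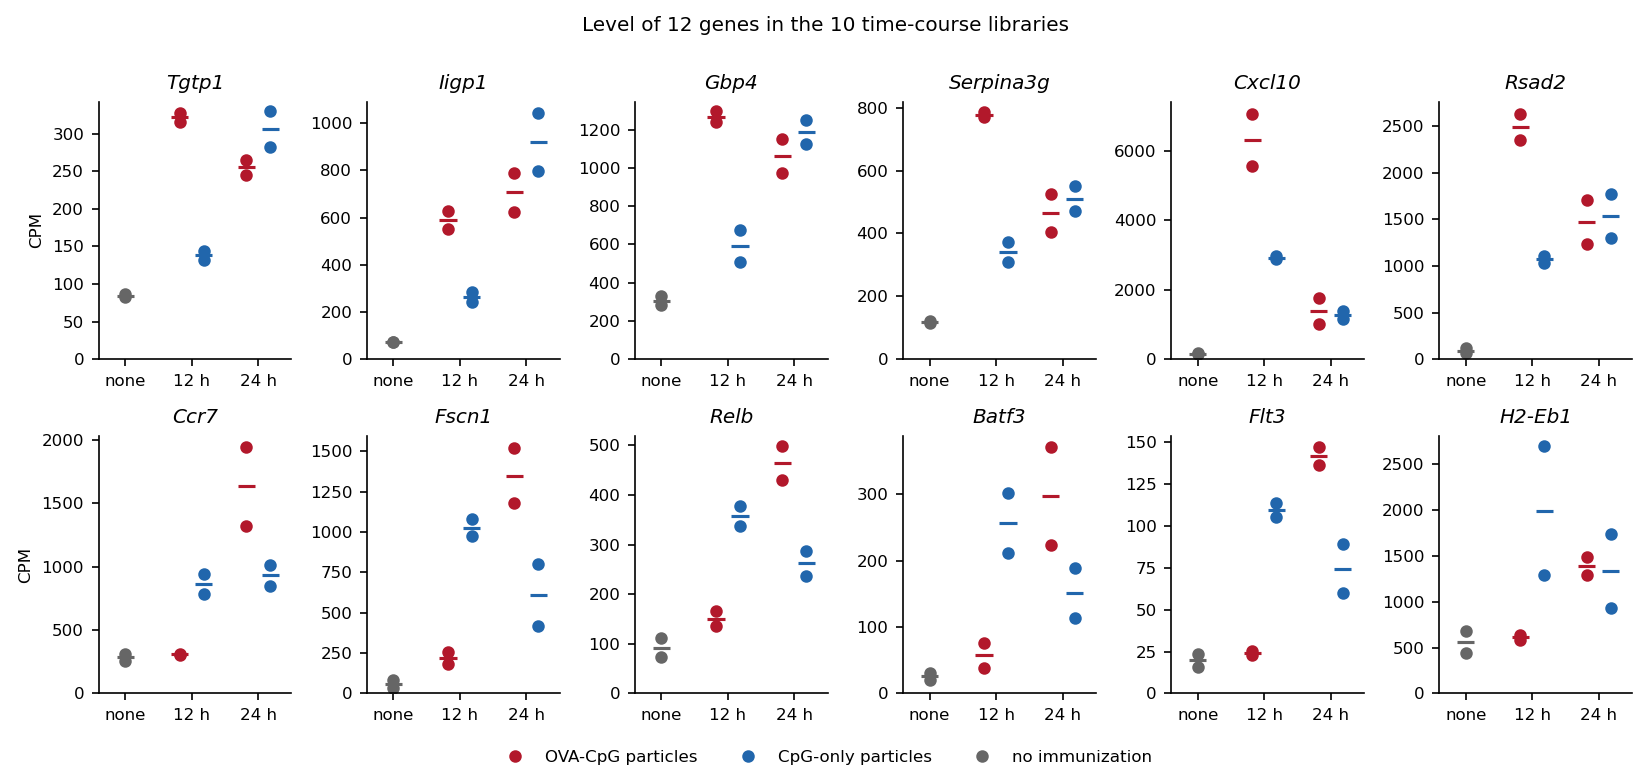
Level in CPM of 12 genes in the 10 time-course libraries, with 1 point per library and a bar at the mean of the 2 replicates, for no immunization (grey), OVA-CpG particles (red) and CpG-only particles (blue). In the upper row both OVA points lie above both CpG-only points at 12 h, and in the lower row both lie below them.

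Promoters of the rises were read from the RefSeq table of the GRCm38.p6 build, which matched 53 of the 71 rises, 116 of the 161 falls and 7299 of the genes tested. The 250 bases before each start were searched on both strands for 2 copies of GAAA with 2 bases between them, the core of the interferon-stimulated response element, with overlapping matches allowed. It stood in 19 of 53 rises (35.8%), 6 of 116 falls (5.17%), 3.63% of the genes tested and 3.46% of all 27025 genes in the table. TTC and GAA with 3 bases between them, the core of the gamma-activated sequence, stood in 11 of 53 rises (20.8%), 5 of 116 falls (4.31%) and 7.28% of the genes tested. GGG and TTTCC with 2 bases between them, an NF-kB motif, stood in 1 of 53 rises, 2 of 116 falls and 1.95% of the genes tested. A match of letters is not a bound site. Windows of 60 bases are shown for the 6 matched rises with the smallest adjusted p, a level of at least 100 CPM and a permitted chromosome, 5′ to 3′ on the strand of the gene with the response element core or its reverse complement in capitals.
Tgtp1 (chr11:48992289-48992348, minus strand): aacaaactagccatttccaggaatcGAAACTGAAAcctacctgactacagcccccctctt
Tgtp2 (chr11:49064248-49064307, minus strand): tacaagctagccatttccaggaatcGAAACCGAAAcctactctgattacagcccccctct
Ifit1bl1 (chr19:34602038-34602097, minus strand): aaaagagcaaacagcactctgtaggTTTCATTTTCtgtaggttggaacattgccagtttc
Slfn5 (chr11:82951922-82951981, plus strand): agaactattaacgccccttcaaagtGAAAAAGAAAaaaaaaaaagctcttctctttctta
Gbp7 (chr3:142530258-142530317, plus strand): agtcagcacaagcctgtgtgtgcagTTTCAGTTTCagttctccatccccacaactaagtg
Rsad2 (chr12:26456538-26456597, minus strand): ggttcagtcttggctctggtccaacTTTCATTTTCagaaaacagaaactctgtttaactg
The capitals begin 77 bases before the start in Tgtp1, 70 in Tgtp2, 104 in Ifit1bl1, 155 in Slfn5, 53 in Gbp7 and 120 in Rsad2. In Slfn5 they run into a stretch of A.

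Maturation and migration genes fell in 31 of 49 cases, with 0 higher and a median of -1.49. Ccr7, which guides DC to the T cell zone, had 306 and 309 CPM after OVA particles, against 786 and 944 CPM after CpG-only particles and 314 and 255 CPM without immunization. Both OVA libraries thus lay below both CpG-only libraries, and within the range of the non-immunized libraries. The log2 difference was -1.49 ± 0.22 (adjusted p = 0.0018, edgeR). Without OVA replicate 2 its adjusted p was 0.0550. Fscn1, which bundles actin in DC dendrites, had 259 and 183 CPM after OVA particles, against 976 and 1081 CPM after CpG-only particles and 85.7 and 31.9 CPM without immunization. Its difference was -2.21 ± 0.34 (adjusted p = 0.00284, edgeR), and without OVA replicate 2 the adjusted p was 0.0926. Called members of the list numbered 26, 13, 18 and 5 without CpG-only replicate 1, CpG-only replicate 2, OVA replicate 1 and OVA replicate 2.

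Other genes of the programme fell with them. Il4i1, an amino acid oxidase of mature DC whose counts overlap those of another gene model, had 216 and 151 CPM after OVA particles, against 759 and 861 CPM after CpG-only particles (log2 -2.13 ± 0.34). Socs2, a suppressor of cytokine signalling, had 141 and 121 CPM after OVA particles, against 371 and 366 CPM after CpG-only particles (log2 -1.49 ± 0.23). Etv3, a transcriptional repressor, had 102 and 122 CPM after OVA particles, against 305 and 310 CPM after CpG-only particles. Its difference of -1.46 ± 0.19 kept its call without any one of the 4 libraries. Cd83, which holds MHC class II at the surface, fell by 1.33 on the log2 scale (SE 0.25). Of 24 NF-kB pathway genes 2 fell and 0 rose (median -0.12), and the maturation list holds both falls as well. Relb had 165 and 135 CPM after OVA particles, against 337 and 378 CPM after CpG-only particles (log2 -1.24 ± 0.22), and the adaptor Traf1 had 217 and 177 CPM against 427 and 473 CPM. The leave-one-out fits called 3, 0, 1 and 0 of the NF-kB genes lower.

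Costimulatory molecules and cytokines did not follow as a group. Among 10 costimulatory ligands 1 rose and 1 fell, and among 14 cytokines 0 were called. Cd40 had 241 and 206 CPM after OVA particles, against 271 and 329 CPM after CpG-only particles, a difference of -0.41 ± 0.26 (adjusted p = 0.579, edgeR). Cd86 overlapped between the groups, with 67.3 and 33.1 CPM after OVA particles and 59.8 and 87.2 CPM after CpG-only particles. Cd80 was near the floor, with 8.52 and 4.32 CPM after OVA particles and 1.17 and 10.9 CPM after CpG-only particles. Il12b, a subunit of interleukin-12, had 0.852 and 5.76 CPM after OVA particles, against 27.0 and 21.8 CPM after CpG-only particles, and was not called (log2 -3.11 ± 1.04, adjusted p = 0.167, edgeR). Il15 differed by 0.01 ± 0.30. Il12b was called lower with only the compared groups in the fit and with no filter on low counts. Under those alternatives 1 and 2 cytokines were called higher, and 2 were called lower under each.

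Chemokines moved in both directions, with 1 of 15 higher (Cxcl10) and 4 lower. Of those lower, Ccl5, Ccl22 and Ccl17 stand in the maturation list as well, so they are no further falls. Ccl5 had 1155 and 761 CPM after OVA particles, against 2724 and 3026 CPM after CpG-only particles (log2 -1.58 ± 0.27). Ccl22, which attracts regulatory T cells, had 131 and 72.0 CPM after OVA particles, against 355 and 288 CPM after CpG-only particles (log2 -1.63 ± 0.36). Its partner at the receptor Ccr4, Ccl17, fell to 6.82 and 10.1 CPM after OVA particles, against 29.3 and 43.6 CPM after CpG-only particles. Cxcl16, a scavenger receptor and chemokine, fell by 1.98 on the log2 scale (SE 0.33). Without single libraries 2, 0, 2 and 0 chemokines were called lower.

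Markers of conventional DC were lower where they were called. Flt3, the growth factor receptor that conventional DC depend on, had 25.6 and 23.03 CPM after OVA particles, against 105 and 114 CPM after CpG-only particles. Its difference of -2.15 ± 0.28 (adjusted p = 8.67e-04, edgeR) kept its call without any one library. Of 15 markers of type 1 conventional DC, 3 fell and 0 rose (median -0.80). Batf3, a transcription factor this subset requires, had 76.7 and 38.9 CPM after OVA particles, against 212 and 302 CPM after CpG-only particles and 31.0 and 20.7 CPM without immunization. The difference was -2.09 ± 0.34 (adjusted p = 0.00357, edgeR). It was not called without CpG-only replicate 2 (adjusted p = 0.0705) or OVA replicate 2 (0.0886). The chemokine receptor Xcr1 had 2 counts in all after OVA particles, at 0.852 and 1.44 CPM, against 16.4 and 42.1 CPM after CpG-only particles. The ratio of CpG-only to OVA counts was 25.6, with an exact 95% interval of 6.65 to 219. Clec9a, a receptor for dead cells on the same subset, had 4.26 and 5.76 CPM after OVA particles and 10.5 and 32.7 CPM after CpG-only particles, and was not called. Among 11 markers of type 2 conventional DC 0 were called. Of 7 tested markers of Langerhans cells and skin-derived DC 5 fell (median -1.63), and 0 were called without OVA replicate 2. These 5 are Ccr7, Fscn1, Il4i1, Ccl22 and Ccl17, which the maturation list holds as well, so they are no further falls. The leave-one-out fits called 2, 0, 1 and 0 of the type 1 markers, in the order given above. In bulk samples fewer cells of a type and less RNA per cell cannot be told apart.

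Among 20 genes of MHC class II presentation 4 fell (median -0.75), while 0 of 24 MHC class I genes were called (median 0.21). The 4 include Cd83, which the maturation list holds as well. H2-Eb1 had 636 and 587 CPM after OVA particles, against 1287 and 2698 CPM after CpG-only particles (log2 -1.70 ± 0.33). H2-Aa had 920 and 1036 CPM after OVA particles, against 1901 and 3754 CPM after CpG-only particles (log2 -1.53 ± 0.35). CpG-only replicate 2 held the highest level of both genes. Without that library neither was called, with adjusted p of 0.2283 for H2-Eb1 and 0.4678 for H2-Aa (edgeR). Both also lost the call without either OVA library. Called class II genes numbered 5, 0, 0 and 1 without CpG-only replicate 1, CpG-only replicate 2, OVA replicate 1 and OVA replicate 2.

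Several of the firmest falls lay outside the lists and were picked after their values were seen. The nuclease Dnase1l3, which degrades extracellular DNA, gave the lowest adjusted p in the comparison (4.24e-05, edgeR). It stood at 58.8 and 46.1 CPM after OVA particles, against 264 and 319 CPM after CpG-only particles and 18.5 and 19.9 CPM without immunization. The semaphorin receptor Plxnc1 had 68.2 and 43.2 CPM after OVA particles, against 211 and 238 CPM after CpG-only particles. The tetraspanin Tspan3 had 111 and 101 CPM after OVA particles, against 329 and 372 CPM after CpG-only particles. Cst3, the protease inhibitor cystatin C that DC make in quantity, fell by 1.31 on the log2 scale (SE 0.24). Among the genes that the rule chose for size, the kinase gene Nek6 had 5.97 and 4.32 CPM after OVA particles, against 46.9 and 49.8 CPM after CpG-only particles. The adhesion protein gene Adam23 had 23.9 and 15.8 CPM after OVA particles, against 121 and 142 CPM. Pfkfb3, a regulator of glycolysis, had 101 and 108 CPM after OVA particles, against 355 and 324 CPM after CpG-only particles, and was 1 of 19 glycolysis genes that fell while 1 other rose. Dnase1l3, Plxnc1, Tspan3, Nek6, Adam23 and Pfkfb3 kept their call without any one of the 4 libraries.

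Neutrophil markers moved with these falls. Of 12 tested markers 6 fell and 0 rose (median -2.10), and the 18 genes of the list summed to 3690 and 3625 CPM after OVA particles, against 16020 and 20498 CPM after CpG-only particles and 462 and 690 CPM without immunization. The granule peptide Camp had 94.6 and 69.1 CPM after OVA particles, against 797 and 1095 CPM after CpG-only particles (log2 -3.50 ± 0.41). Ltf, the granule protein lactoferrin, had 74.1 and 27.3 CPM after OVA particles, against 587 and 612 CPM after CpG-only particles. The calprotectin subunit S100a9 had 707 and 610 CPM after OVA particles, against 5276 and 7130 CPM after CpG-only particles. Ngp and Lcn2, granule genes as well, had log2 differences of -3.60 ± 0.56 and -2.11 ± 0.46, both called. Leaving out single libraries left 4, 3, 3 and 2 markers called. Monocyte and macrophage markers had 0 of 18 called and summed to 7991 and 7661 CPM after OVA particles, against 7088 and 8685 CPM after CpG-only particles. Lyz2, expressed in monocytes and neutrophils, had 610 and 487 CPM after OVA particles, against 758 and 790 CPM after CpG-only particles, and was not called. With the lists of neutrophil, monocyte, T cell, B cell and cytotoxic cell markers left out of the library sizes, 72 genes were called higher and 161 lower. The part of other cells in the falls was not tested.

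T cell markers moved with the rises. Of 20 tested 2 rose and 0 fell, and 17 had a positive difference (median 0.44). Ms4a4b, expressed on T cells, had 3674 and 3889 CPM after OVA particles, against 2229 and 1425 CPM after CpG-only particles. Cd3e, a chain of the T cell receptor complex, had 173 and 183 CPM after OVA particles, against 136 and 87.2 CPM after CpG-only particles, and was not called. The early activation marker Cd69 had 321 and 226 CPM after OVA particles, against 131 and 146 CPM after CpG-only particles (log2 0.99 ± 0.25). Its list of activated T cell markers did not move as a group. Of 10 tested 1 rose and 1 fell, and 5 had a positive difference (median -0.05). Gzmb, the cytotoxic protease granzyme B, had 112 and 153 CPM after OVA particles, against 68.0 and 15.6 CPM after CpG-only particles, and was not called (adjusted p = 0.0685, edgeR). Of 12 tested cytotoxic and NK cell markers 0 rose and 1 fell, and 10 had a positive difference (median 0.82). The fall was the chemokine Ccl5, which the maturation list holds as well. DESeq2 and voom each called 1 member higher, the replicate block 2 and median-of-ratios size factors 0. Without CpG-only replicate 1, 3 T cell markers were called, and without each of the other libraries 0. Plasmacytoid DC markers had 1 of 10 called, Bst2 (1.03 ± 0.24), which is also an interferon-stimulated gene. The part of T cell RNA in the rises was not tested.

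The ribosomal RNA precursor and nuclear RNAs also differed, and the cause was not tested. The precursor of ribosomal RNA, Rn45s, had 9315 and 13629 CPM after OVA particles, against 22778 and 23442 CPM after CpG-only particles (log2 -1.01 ± 0.25, adjusted p = 0.0468, edgeR). The nuclear RNA Malat1 had 377 and 383 CPM after OVA particles, against 1112 and 994 CPM after CpG-only particles, and a second nuclear RNA, Neat1, had 503 and 461 CPM against 825 and 989 CPM. These 3 genes were singled out after their values were seen. Of 44 ribosomal protein genes and 37 oxidative phosphorylation genes 0 were called (medians 0.07 and 0.12).

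The same contrast at 24 h compares other libraries, which entered the filter, scaling and pooled spread of the fit that made the 12 h calls. There 0 of 9428 genes were called (0%), 959 had an unadjusted p under 0.05, and the smallest adjusted p was 0.0522 for Camp (edgeR). The chi-square per degree of freedom between replicates was 3.10 for OVA and 6.27 for CpG-only particles at 24 h, against 2.79 and 2.98 at 12 h. Of the 161 genes that fell at 12 h, 158 had a positive difference at 24 h, with a median of 0.90, against 47.8% of all genes and a median of -0.02. Of the 71 that rose at 12 h, 16 had a positive difference at 24 h (median -0.16). Ccr7 stood at 1946 and 1318 CPM after OVA particles at 24 h, against 1010 and 849 CPM after CpG-only particles. Fscn1 stood at 1523 and 1179 CPM after OVA particles at 24 h, against 799 and 420 CPM after CpG-only particles. Flt3 stood at 147 and 136 CPM, against 89.0 and 59.8 CPM after CpG-only particles. For all 3 genes the OVA libraries were the lower ones at 12 h and the higher ones at 24 h, without a call at 24 h. Tgtp1 had 265 and 245 CPM after OVA particles at 24 h, against 330 and 283 CPM after CpG-only particles. Neutrophil markers at 24 h summed to 552 and 2785 CPM after OVA particles, against 1114 and 158 CPM after CpG-only particles. T cell markers summed to 7072 and 7273 CPM after OVA particles, against 8201 and 7972 CPM. B cell markers summed to 645 and 1255 CPM after OVA particles, against 751 and 3100 CPM after CpG-only particles. Their part in the 24 h values was not tested. Serpina3g overlapped at 24 h, with 525 and 403 CPM after OVA particles and 471 and 550 CPM after CpG-only particles.

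The change of the particle difference between the times was tested directly as an interaction, the log2 difference at 24 h minus that at 12 h. edgeR called 319 of 9428 genes (3.38%), 254 with a positive (2.69%) and 65 with a negative value (0.689%). Positive values were found for Ccr7 (2.30, adjusted p = 3.95e-04), Fscn1 (3.37, adjusted p = 8.51e-04), Flt3 (3.13, adjusted p = 1.69e-04) and Batf3 (3.10, adjusted p = 0.00117). Negative values were found for Tgtp1 (-1.47, adjusted p = 0.00326), Iigp1 (-1.54, adjusted p = 0.00454) and Serpina3g (-1.33, adjusted p = 0.00903). Cxcl10 was not called (-0.97, adjusted p = 0.138). Of the maturation list 38 of 49 members had a called positive value. The 12 h libraries that chose the genes enter this test as well. Its count was 155 without CpG-only 12 h replicate 2, 744 when CpG-only 24 h replicate 1 was left out and 175 when OVA 24 h replicate 1 was. Leaving out the first or the second OVA library of 12 h gave 176 and 164.

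**Figure D4:**
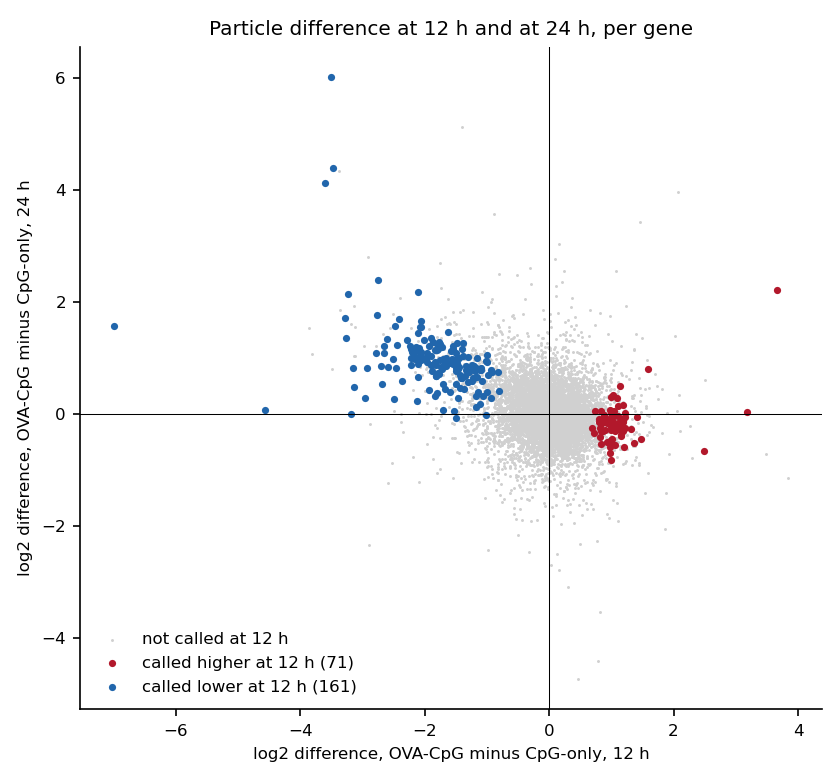
Log2 difference of OVA-CpG minus CpG-only particles at 12 h (horizontal) and at 24 h (vertical) for each of 9428 genes, with the 71 genes called higher at 12 h in red and the 161 called lower in blue. Of the blue points 158 lie above the horizontal zero line, and of the red points 16 do.

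OVA was compared with BSA, a protein that OT cells do not recognise, in 2 experiments that share no library with the time course and were scaled separately. At 12 h with OT cells, 1 of 9355 genes was called (0.0107%), the protease gene Ctse, lower with OVA. DESeq2 called 12, and edgeR called 200 without BSA replicate 1, 3 without BSA replicate 3 and 0 without either OVA library. An unadjusted p under 0.05 was found for 850 genes. Of the 71 rises 66 were tested there and 49 had a positive difference (median 0.29), against 51.2% of all genes. Of the 161 falls 127 were positive too (median 0.24). The BSA replicates lay far apart, also in sums of marker lists. Erythroid and platelet markers summed to 17536.5 and 143.9 CPM with BSA, against 8632 and 20263 CPM with OVA. Plasmacytoid DC markers summed to 1259 and 7553 CPM with BSA, against 1563 and 1463 CPM with OVA. The part of other cells in these differences was not tested. Genes of a set can move together, so the counts of signs are no independent test of the antigen. Tgtp1 had 79.2 and 103 CPM with OVA, against 117 and 37.6 CPM with BSA, and Ccr7 had 2044 and 1389 CPM with OVA, against 2529 and 601 CPM with BSA.

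At 20 h, 0 of 9159 genes were called between OVA and BSA (0%), and 561 had an unadjusted p under 0.05 while DESeq2 called 0. OVA replicate 3 stood apart, with a chi-square per degree of freedom of 12.3 to 16.9 against the other OVA libraries. Among the rest of the OVA libraries it ran from 3.60 to 7.31, and among the BSA libraries from 2.83 to 11.1. Of the 71 rises 56 were tested and 51 had a positive difference (median 0.60), against 50.9% of all genes. Of 153 tested falls 90 were positive (median 0.04). Tgtp1 ranged from 16.9 over a median of 83.1 to 141 CPM with OVA, against 14.4, 29.5 and 56.6 CPM with BSA. Iigp1 ranged from 9.14 over 52.4 to 132 CPM with OVA, against 11.5, 18.5 and 51.1 CPM with BSA. Cxcl10 ranged from 99.8 over 335 to 537 CPM with OVA, against 51.7, 88.4 and 319 CPM with BSA, and Serpina3g from 158 over 271 to 399 CPM with OVA, against 151, 191 and 344 CPM with BSA. The groups overlapped for each of these 4 genes, with the higher median in the OVA group. Batf3 had medians of 948 CPM with OVA and 935 CPM with BSA. Ccr7 ranged from 2987 over 3625 to 4709 CPM with OVA, against 2018, 2516 and 4481 CPM with BSA, and Fscn1 had medians of 7136 CPM with OVA and 5062 CPM with BSA. Without OVA replicate 3 edgeR called 0 genes, and without OVA replicate 5 it called 4.

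**Figure D5:**
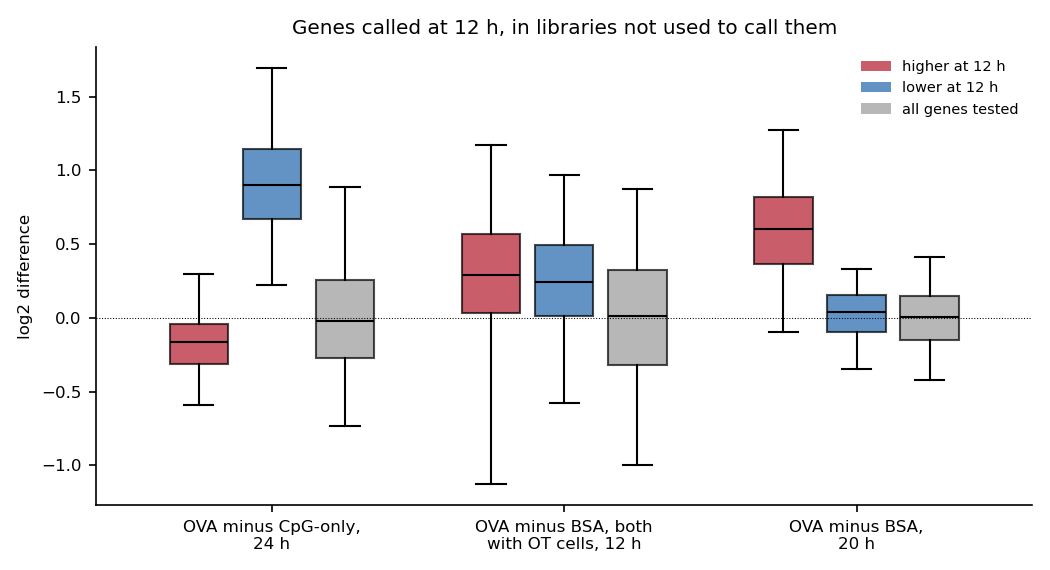
Log2 differences in comparisons of other libraries, for the genes higher at 12 h (red), lower at 12 h (blue) and all genes tested (grey). Boxes run from the lower to the upper quartile, with a line at the median and whiskers from the 5th to the 95th percentile. The 24 h libraries of the left boxes entered the filter, scaling and pooled spread of the fit that called the genes. The medians of the red boxes are -0.16, 0.29 and 0.60 and those of the blue boxes 0.90, 0.24 and 0.04, from left to right.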

How the data were processed

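RNA of sorted lymph node DC was analysed from the deposited tables of 3 experiments. Per the labels, polyA RNA was captured from sorted cells and libraries were built in plates. Per the submitters' processing notes, bcl2fastq, HISAT 0.1.6 and HOMER were used with the mm9 build. The authors deposited whole-number counts per gene, used here as raw counts, beside a log2 fold change and an adjusted p-value per comparison, per the file headers. A second block of values in each table and the T cell table were not used. The table of 20 h also holds 4 columns, from 2 libraries, that could be tied to none of the samples and were set aside. Samples were grouped by their labels.

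The counts were tested with edgeR 4.0.16 (quasi-likelihood, TMM, filterByExpr by group, Benjamini-Hochberg). All libraries of an experiment were in the fit, which pools the estimate of the spread. Total counts ran from 612017 to 1329203 in the time course, 628404 to 1621784 in the costimulation experiment and 367209 to 2052904 at 20 h. DESeq2 1.42.0, limma 3.58.1 with voom, other size factors, filters, a replicate block, only the groups compared, marker lists left out of the library sizes and each library left out in turn were alternatives. Tests were tried on simulated data. Scripts ran under R 4.3.3 and Python 3.11.15, with matplotlib 3.10.9, numpy 2.4.6 and pandas 2.3.3.

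The members and lists were chosen with earlier results of these data known. Of 778 genes in 41 lists 771 were found in the table. Genes to name were the 15 largest called rises and the 15 largest called falls that reached 10 CPM on average in the higher group and whose libraries did not overlap, up to 4 called genes per list by adjusted p, and 23 genes followed in any case. The text gives a selection, and 16 further genes it names were list members or chosen after their values were seen. Some results are not reported here. Intervals cover counting error only.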

Additional observations from a re-analysis of the deposited data

Results flagged for a closer look

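The OVA minus CpG-only difference of 42 genes named above changed between the times by edgeR's interaction test (adjusted p under 0.05). Values in brackets are the log2 difference at 24 h minus that at 12 h. Interferon-inducible genes had negative values: Tgtp1 (-1.47), Serpina3g (-1.33), Iigp1 (-1.54), Ifi47 (-1.22), Gbp4 (-1.26), Gbp7 (-1.46), Serpina3f (-1.94), Socs1 (-1.03), Cmpk2 (-1.14), Isg20 (-1.49), Samhd1 (-0.91), Slfn5 (-1.36) and Ifit1bl1 (-1.88). The activation marker Cd69 (-1.47) was negative too. Maturation, NF-kB and chemokine genes had positive values: Ccr7 (2.30), Fscn1 (3.37), Socs2 (2.49), Il4i1 (3.31), Etv3 (2.26), Cd83 (2.18), Relb (2.07), Traf1 (2.00), Ccl22 (3.09), Ccl5 (2.49) and Cxcl16 (2.96). DC identity and antigen presentation genes were positive: Batf3 (3.10), Flt3 (3.13), H2-Eb1 (1.76) and Cst3 (2.31). Neutrophil markers were positive: Camp (9.52), Ngp (7.72), Ltf (7.87), S100a9 (5.37) and Lcn2 (4.28). The size of these values is uncertain. At 24 h the summed neutrophil list overlapped between the groups, with replicates far apart. It stood at 552 and 2785 CPM after OVA particles and at 1114 and 158 CPM after CpG-only particles. The rest were Dnase1l3 (3.68), Nek6 (3.96), Adam23 (3.87), Pfkfb3 (2.69), Malat1 (1.76), Neat1 (1.66), Plxnc1 (2.88) and Tspan3 (2.53). The same 12 h libraries chose most of these genes.

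The highest of the 5 BSA libraries at 20 h stood apart for Ccr7, at 4481 CPM against a group median of 2516 CPM. Dixon's test was run on 14 groups of 5 libraries, and chance marks about 1 in 20 groups, so a single flag is near what chance gives.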

How the results depend on the processing

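All 232 calls at 12 h kept their sign under every alternative run, which the lack of overlap between the groups for most of them largely fixed beforehand. With no filter on low counts 469 genes were called (187 higher, 282 lower), and with only the groups compared in the fit 413 (149 higher, 264 lower). Leaving out 1 library gave 24 to 168 calls, 0 to 52 higher and 21 to 116 lower. Among called genes 30.6% were higher, and 0 to 12.5% without CpG-only replicate 2 or either OVA library. The interaction gave 594 calls with no filter and 155 to 744 without 1 library. OVA against BSA at 12 h gave 227 with no filter, 12 with DESeq2, 4 with only the groups compared, 0 with voom and 0 to 200 without 1 library. At 20 h it gave 2 with no filter and 0 to 4 without 1 library. The causes were not tested, beyond the different genes and samples that these alternatives enter.

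Replicate numbers are shared by the groups, but the labels name no shared animal or batch. Deviations of OVA and CpG-only replicate 1 at 12 h correlated at -0.02, so the numbers are not shown to pair the samples. A fit with the replicate number as a block called 255 genes at 12 h, 80 higher and 175 lower, and 2 between OVA and BSA at 12 h. With 2 libraries a group, genes at low levels were not resolved.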
